A study of Homo sapiens with 12 samples.

Results

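The ERK feedback genes studied here are 10 genes that encode brakes on RAS-ERK signalling: the dual-specificity phosphatase genes DUSP1, DUSP2, DUSP4, DUSP5 and DUSP6, the Sprouty genes SPRY1, SPRY2 and SPRY4, and the SPRED1 and SPRED2 genes. They were taken by symbol from a table of 63129 genes measured by RNA sequencing, where each symbol had 1 row. RNA came from 12 libraries of 3 established human lines of diffuse large B cell lymphoma of the germinal centre type, all with an activating change in the SET domain of the histone methyltransferase EZH2. The groups were RL with DMSO (n = 2), KARPAS-422 with CPI-169 (n = 3) and with DMSO (n = 3), and Pfeiffer with GSK343 (n = 2) and with DMSO (n = 2). Both compounds are EZH2 inhibitors, given at 1.5 µM for 4 days, and the vehicle was 0.1% DMSO. The labels call KARPAS-422 and Pfeiffer responsive to EZH2 inhibition and RL not, and RL was measured with vehicle alone. Each line received a different compound or none, so compound and line cannot be told apart.

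ERK is the last kinase of the RAS-RAF-MEK-ERK cascade, which in B cells acts downstream of the antigen receptor. Active ERK induces transcription of its own inhibitors. DUSP1, DUSP2, DUSP4 and DUSP5 encode nuclear phosphatases that remove phosphates from mitogen-activated protein kinases, with DUSP5 directed at ERK and DUSP1 also at p38 and JNK. DUSP6 encodes a cytoplasmic phosphatase directed at ERK. Sprouty proteins block signalling between receptors and RAF, and SPRED proteins bring the RAS inactivator neurofibromin to the membrane. Transcripts of these genes are often read as a record of ERK output, but they say nothing by themselves of ERK phosphorylation, which was not measured in these libraries.

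Values are FPKM, which are fragments scaled to transcript length and to the mapped fragments of the library, so levels of different genes can be compared. Tests were made on log2(FPKM + 1), and every log2 difference below is on that scale, where changes of low genes are understated. Of the 10 genes, 9 passed the filter of at least 1 FPKM in at least 2 libraries. SPRY2 did not pass: it was listed at 0 in the RL and KARPAS-422 libraries and reached at most 0.153 FPKM in Pfeiffer. DUSP4, DUSP6 and SPRY4 passed only through KARPAS-422 libraries, and SPRY1 only through Pfeiffer libraries. SPRED1 also needed KARPAS-422 to pass, since outside it only Pfeiffer GSK343 replicate 2 reached 1 FPKM, at 1.27 FPKM. A call is an adjusted p under 0.05 from limma with Benjamini-Hochberg adjustment over 18731 genes. The 2 GSK343 libraries stood further apart than other replicates: their log2 values differed by 0.497 (root mean square), against 0.164 to 0.245 between replicates of the other groups. All 8 listed B cell markers were at 1 FPKM or more in every library. Of 9 T and NK cell markers, CD8A was at 297 to 395 FPKM in Pfeiffer GSK343 libraries and 411 to 412 in Pfeiffer DMSO libraries, and CD3G at 49.0 to 55.2 in KARPAS-422 CPI-169 libraries and 34.0 to 35.3 in KARPAS-422 DMSO libraries. CD2 was at 0.0962 FPKM or less in every library. The 9 summed to 298 to 397 FPKM in Pfeiffer GSK343 and 411 to 413 in Pfeiffer DMSO, and to 55.6 to 62.4 in KARPAS-422 CPI-169 and 35.6 to 37.3 in KARPAS-422 DMSO. Of 6 epithelial and stromal markers found, 4 were at 1 FPKM or more in every Pfeiffer library, and the 6 summed to 57.2 to 79.2 FPKM with GSK343 and 140 to 141 with DMSO. EPCAM made up most of these sums, at 49.8 to 66.7 FPKM with GSK343 and 134 to 135 with DMSO. KRT18 (4.06 to 5.26 against 2.75 to 3.22) and COL1A1 (2.02 to 4.20 against 1.04 to 1.23) were higher with GSK343, and KRT8 overlapped. The T and NK cell markers summed to 4.89 to 5.29 FPKM in RL. The 6 myeloid markers summed to 21.5 to 22.7 FPKM in RL, of which CD33 made up 20.9 to 22.3, to 5.32 to 5.94 FPKM in KARPAS-422 CPI-169 and 2.20 to 2.70 in KARPAS-422 DMSO, and to at most 0.685 in Pfeiffer. CD33 was the 1 myeloid marker at 1 FPKM or more in every library of RL and KARPAS-422. The part of these markers in the results below was not tested.

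The promoters of 4 genes are shown because their transcripts changed in KARPAS-422, DUSP1 and DUSP2 lower and DUSP6 and SPRED2 higher with CPI-169. The sequences are from RefSeq on GRCh38.p14, 5′ to 3′ on the strand of the gene, from 250 bases before to 50 bases after the first listed start. They are DUSP1 at chr5:172771146-172771445, DUSP2 at chr2:96145391-96145690, DUSP6 at chr12:89352452-89352751 and SPRED2 at chr2:65432550-65432849, all on the minus strand. Capitals mark matches, on both strands, to the cAMP response element TGACGTCA, its core TGACG, the AP-1 motif TGANTCA, the E-box CACGTG, the ETS motif CCGGAA, the TATA motif TATAAA and the CArG box of serum response factor.
DUSP1: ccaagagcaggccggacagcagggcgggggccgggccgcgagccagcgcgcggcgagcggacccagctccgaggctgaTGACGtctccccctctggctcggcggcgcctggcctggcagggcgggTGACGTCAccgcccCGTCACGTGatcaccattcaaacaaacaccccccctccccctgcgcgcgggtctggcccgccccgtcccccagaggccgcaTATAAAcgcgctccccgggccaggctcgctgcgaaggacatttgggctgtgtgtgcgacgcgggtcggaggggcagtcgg
DUSP2: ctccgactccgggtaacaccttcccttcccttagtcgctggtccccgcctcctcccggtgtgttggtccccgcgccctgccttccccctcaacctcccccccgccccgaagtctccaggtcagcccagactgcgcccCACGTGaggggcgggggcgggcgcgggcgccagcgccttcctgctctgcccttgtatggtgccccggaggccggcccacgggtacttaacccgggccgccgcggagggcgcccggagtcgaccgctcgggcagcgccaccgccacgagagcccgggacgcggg
DUSP6: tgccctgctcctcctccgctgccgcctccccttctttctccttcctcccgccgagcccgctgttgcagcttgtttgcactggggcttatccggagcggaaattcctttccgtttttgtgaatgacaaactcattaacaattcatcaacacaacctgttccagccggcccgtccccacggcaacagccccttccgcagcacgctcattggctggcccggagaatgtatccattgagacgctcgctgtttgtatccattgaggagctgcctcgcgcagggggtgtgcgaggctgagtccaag
SPRED2: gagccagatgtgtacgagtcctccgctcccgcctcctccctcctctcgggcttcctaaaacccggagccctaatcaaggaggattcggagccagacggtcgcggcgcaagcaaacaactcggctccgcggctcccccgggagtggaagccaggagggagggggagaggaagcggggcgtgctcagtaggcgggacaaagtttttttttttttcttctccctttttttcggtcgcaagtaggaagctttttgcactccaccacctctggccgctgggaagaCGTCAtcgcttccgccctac

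The DUSP1 window holds a full cAMP response element at position -125 from the start, which 1.85% of 35116 promoter windows in the table have. Its core occurs 4 times, of which 2 lie within the full element and 1 overlaps the E-box. A TATA match lies at position -30, a motif present in 11.5% of windows. The DUSP2 window has an E-box at position -113, found in 7.26% of windows. The DUSP6 window has none of the 7 motifs, and the SPRED2 window has 1 core TGACG after the start, a match found in 24.6% of windows. The AP-1, ETS and CArG matches found in 7.71%, 17.2% and 1.29% of windows were in none of these 4. A second listed SPRED2 start, whose window is not shown, has AP-1 matches at positions -6 and 35 and a TATA match at -31. SPRED1, which fell with CPI-169, has none of the 7 motifs in its window. Windows were searched for 8 of the 10 genes, not for DUSP4 and DUSP5. The selection left out member windows on chromosome 8, where DUSP4 lies. A match describes letters only and is not a site of binding.

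**Figure D1:**
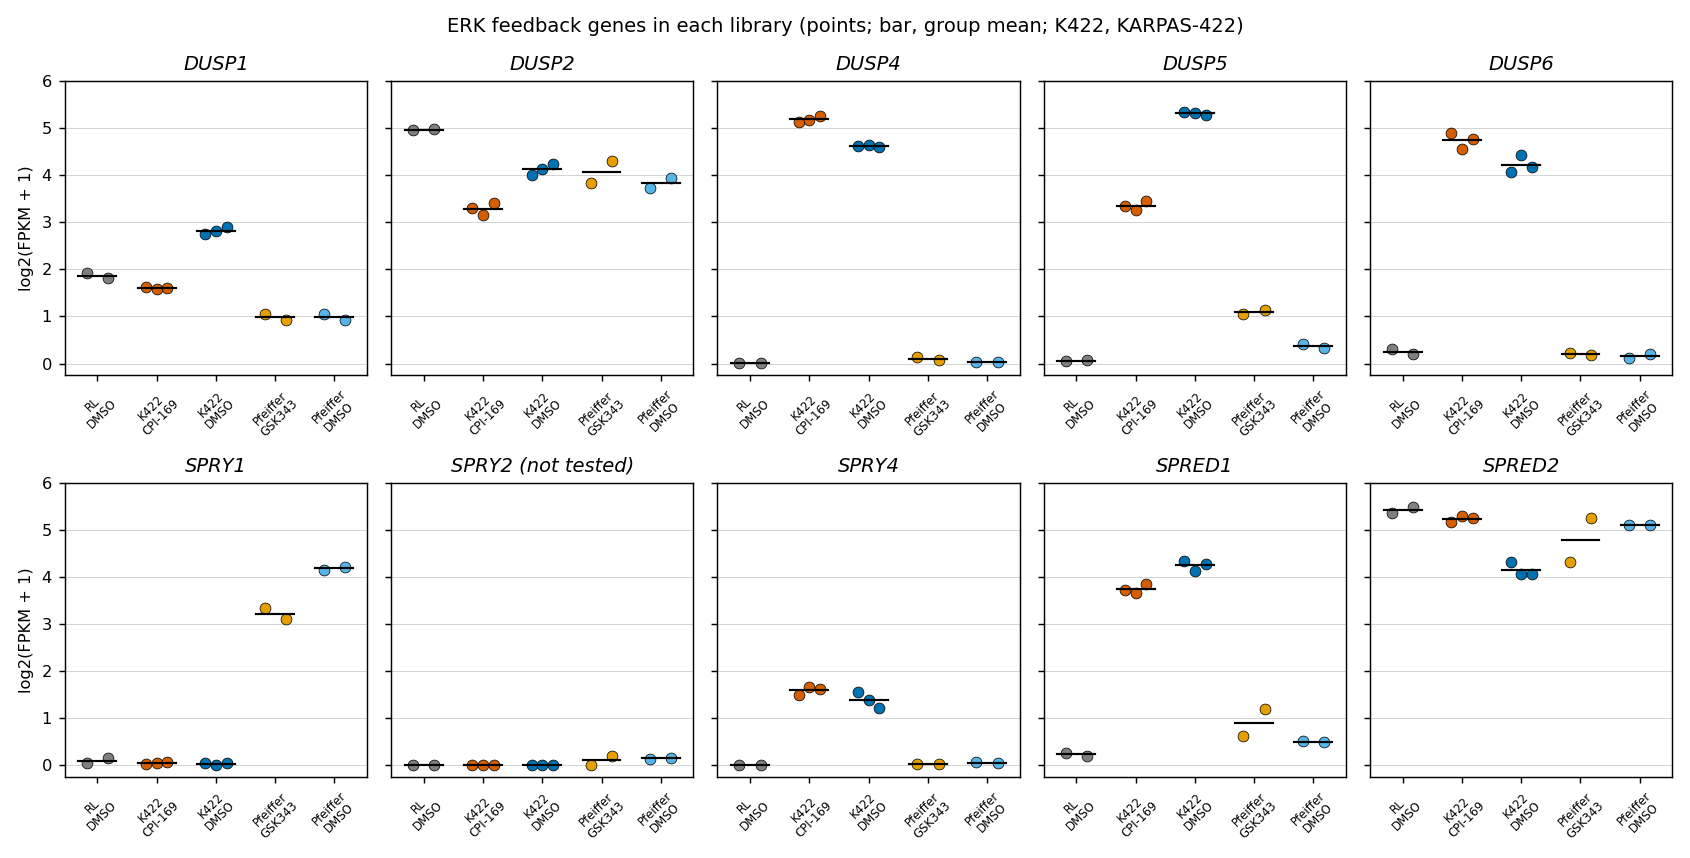
Level of each gene in every library, as log2(FPKM + 1) on the vertical axis, with 5 groups on the horizontal axis. Points are libraries and bars are group means. DUSP4, DUSP6 and SPRY4 are above 1 FPKM in KARPAS-422 libraries alone and SPRY1 in Pfeiffer libraries alone, while DUSP2 and SPRED2 are above 1 FPKM in all 12.

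With CPI-169, KARPAS-422 cells had less DUSP5, DUSP1 and DUSP2 and more DUSP4, DUSP6 and SPRED2, so the nuclear phosphatase genes did not move together. Of the 9 tested genes 3 rose, 4 fell and 2 did not pass. Over all tested genes 54.2% were called, 26.9% higher and 27.3% lower, so the background is high. The libraries of the 2 groups did not overlap for 7 of the 9 genes, and for 65.0% of all genes. The median log2 difference was 0.0137 over the 9 genes and 0.00783 over all genes.

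DUSP5 fell most. It was 9.17, 8.54 and 9.89 FPKM in the CPI-169 libraries, against 39.7, 39.2 and 37.7 FPKM in the DMSO libraries. The groups lie far apart, with means of 9.20 ± 0.673 FPKM with CPI-169 and 38.9 ± 1.00 FPKM with DMSO (SD, n = 3 each), or 4.22-fold lower with CPI-169. The log2 difference was -1.97 (SE 0.0764, limma, adjusted p = 2.73e-08). In bulk RNA a lower level can come from fewer cells with the transcript or from less of it per cell, which cannot be told apart. DUSP5 is at 10:112257595-112271302 on hg19.

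DUSP1, an immediate early phosphatase gene at 5:172195092-172198198, was 2.10, 2.00 and 2.05 FPKM with CPI-169, against 5.71, 6.06 and 6.51 FPKM with DMSO. All 3 CPI-169 libraries lay below all 3 DMSO libraries, and the log2 difference was -1.22 (SE 0.0803, limma, adjusted p = 7.54e-07). DUSP2, an activation-induced phosphatase gene of lymphocytes at 2:96808904-96811179, was 8.84, 7.96 and 9.62 FPKM with CPI-169 and 15.1, 16.6 and 17.8 FPKM with DMSO. These groups do not overlap either, and the log2 difference was -0.84 (SE 0.123, adjusted p = 1.96e-04, limma).

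DUSP4, the other nuclear phosphatase gene, moved the opposite way. It was 34.0, 35.3 and 37.2 FPKM with CPI-169 and 23.4, 23.9 and 23.2 FPKM with DMSO, with every CPI-169 library higher (log2 difference 0.58, SE 0.0695, limma, adjusted p = 4.89e-05). DUSP4 lies at 8:29190580-29208185. DUSP6, the cytoplasmic ERK phosphatase gene at 12:89741008-89747048, was 28.7, 22.6 and 26.4 FPKM with CPI-169 and 15.8, 20.4 and 17.2 FPKM with DMSO. The groups were separate but close, 22.6 against 20.4 FPKM at the nearest libraries, and the log2 difference was 0.52 (SE 0.112, limma, adjusted p = 0.00247).

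The 2 SPRED genes diverged. SPRED2, at 2:65537984-65659771, was 35.0, 38.2 and 37.0 FPKM with CPI-169 and 19.0, 15.6 and 15.7 FPKM with DMSO, a 2.19-fold rise without overlap (log2 difference 1.09, SE 0.184, limma, adjusted p = 4.99e-04). SPRED1, at 15:38544526-38649450, was 12.2, 11.6 and 13.4 FPKM with CPI-169 and 19.2, 16.3 and 18.4 FPKM with DMSO. Its fall of 0.50 on the log2 scale passed (SE 0.131, adjusted p = 0.00766, limma) but did not with a pseudocount of 0.1 FPKM (adjusted p = 0.0792). SPRED2 thus averaged 36.7 ± 1.58 FPKM and SPRED1 12.4 ± 0.898 FPKM with CPI-169, while with DMSO they were close, at 16.8 ± 1.94 and 17.97 ± 1.47 FPKM (SD, n = 3 each).

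SPRY4, at 5:141689991-141706020, was the 1 Sprouty gene above 1 FPKM in KARPAS-422. It was 1.82, 2.18 and 2.06 FPKM with CPI-169 and 1.95, 1.61 and 1.31 FPKM with DMSO, and the groups overlapped (log2 difference 0.21, limma, adjusted p = 0.0776). Without DMSO replicate 1 it passed (0.30, adjusted p = 0.0147, limma). SPRY1, at 4:124317949-124324910, was at 0.0562 FPKM or less in all 6 KARPAS-422 libraries and did not pass (adjusted p = 0.925, limma).

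The 10 genes summed to nearly the same level in both groups, and their make-up differed. The sums were 132, 128 and 138 FPKM with CPI-169 and 140, 140 and 138 FPKM with DMSO. The 4 nuclear phosphatase genes summed to 54.1, 53.8 and 58.8 FPKM with CPI-169, against 83.9, 85.7 and 85.2 FPKM with DMSO. DUSP5 held 6.65% to 7.18% of the sum over the 10 genes with CPI-169 and 27.4% to 28.3% with DMSO. SPRED2 held 26.6% to 29.7% with CPI-169 and 11.2% to 13.6% with DMSO. These sums are descriptions, with no test.

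**Figure D2:**
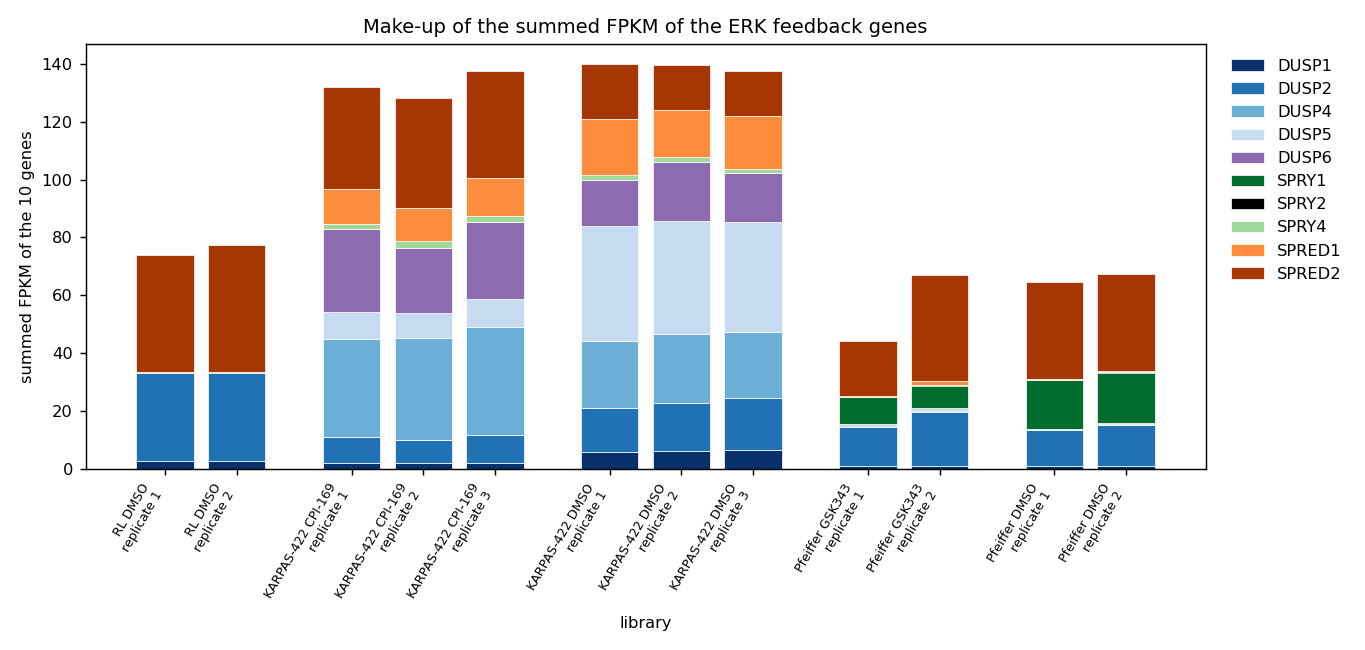
Summed FPKM of the 10 genes on the vertical axis, 1 bar for each of 12 libraries, split by gene. In KARPAS-422 the bars reach 128 to 138 FPKM with CPI-169 and 138 to 140 with DMSO, with a smaller DUSP5 part and a larger SPRED2 part under CPI-169; RL bars are nearly all DUSP2 and SPRED2.

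In Pfeiffer, GSK343 was followed by a fall of SPRY1 and a rise of DUSP5, the gene that fell most in KARPAS-422. Of the 9 tested genes 1 rose, 1 fell and 7 did not pass, in a comparison where 29.5% of all genes were called, 12% higher and 17.5% lower. A share of 2 in 9 lies near that background. The libraries did not overlap for 5 of the 9 genes, and for 57.8% of all genes. The median log2 difference was 0.0453 over the 9 genes and -0.0334 over all genes.

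SPRY1 was 9.07 and 7.61 FPKM with GSK343 and 16.7 and 17.5 FPKM with DMSO. Both GSK343 libraries lay below both DMSO libraries, with means of 8.34 ± 1.03 and 17.1 ± 0.568 FPKM (SD, n = 2 each), or 2.05-fold lower with GSK343 (log2 difference -0.96, SE 0.0967, limma, adjusted p = 6.13e-05). DUSP5 was 1.06 and 1.19 FPKM with GSK343 and 0.327 and 0.260 FPKM with DMSO, a low level beside that of KARPAS-422 (log2 difference 0.71, SE 0.0936, adjusted p = 3.37e-04, limma). Neither call held with Pfeiffer fitted alone, where 0 genes of the table passed with limma (adjusted p = 0.0671 for SPRY1 and 0.0556 for DUSP5). There 4634 genes, these 2 among the 9 tested, had an unadjusted p under 0.05.

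For 3 genes the 2 GSK343 libraries gave different answers. SPRED2 was 18.9 and 36.9 FPKM with GSK343, against 33.4 and 33.4 FPKM with DMSO, so that 1 treated library was below and 1 above the DMSO level. The log2 difference of -0.33 did not pass (limma, adjusted p = 0.309). It was -0.79 without GSK343 replicate 2 (adjusted p = 8.33e-04, limma) and 0.14 without replicate 1 (adjusted p = 0.364, limma). DUSP2 was 13.2 and 18.8 FPKM with GSK343 and 12.3 and 14.3 FPKM with DMSO (log2 difference 0.24, adjusted p = 0.266, limma). SPRED1 was 0.545 and 1.27 FPKM with GSK343 and 0.431 and 0.402 FPKM with DMSO (log2 difference 0.40, adjusted p = 0.0827, limma). Without GSK343 replicate 1, DUSP2 passed at 0.48 (adjusted p = 0.0127, limma) and SPRED1 at 0.68 (adjusted p = 0.00136, limma), where the lone GSK343 library is taken to vary as the rest do. SPRED1 also passed with all libraries kept, at 0.87 with a pseudocount of 0.1 FPKM (adjusted p = 0.0487) and at 0.45 with median scaling (adjusted p = 0.0413, both limma).

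DUSP1 was 1.07 and 0.899 FPKM with GSK343 and 1.08 and 0.903 FPKM with DMSO. The interval of its log2 difference ran from -0.22 to 0.21 at 95% confidence. From a DMSO mean of 0.993 FPKM, even full loss could not give the -1.22 seen in KARPAS-422 on FPKM + 1. On this scale the effect in Pfeiffer therefore had less room than that in KARPAS-422, and the interval alone does not compare the lines. In the test of the difference between the lines, DUSP1 was called (-1.21, limma, adjusted p = 5.77e-05). That call held in all 20 alternative settings. DUSP4, DUSP6 and SPRY4 stayed at 0.171 FPKM or less in all 4 Pfeiffer libraries, where FPKM + 1 can show little change, and none passed. SPRY2 was 0.00593 and 0.153 FPKM with GSK343 and 0.0912 and 0.120 FPKM with DMSO and was not tested.

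**Figure D3:**
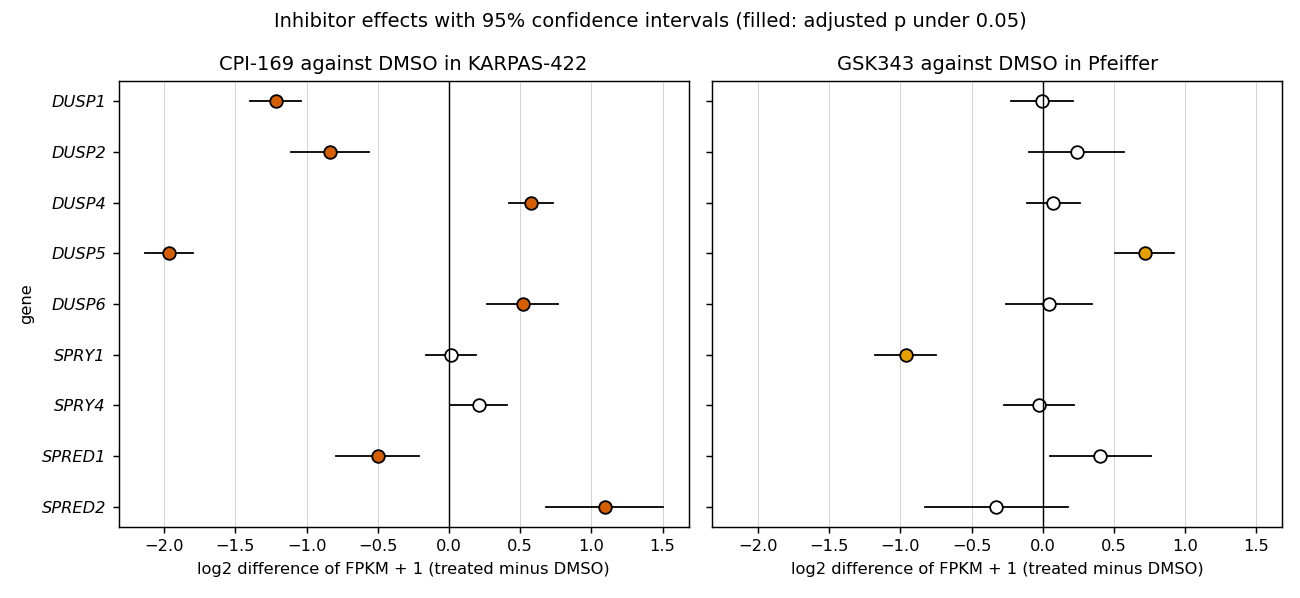
Log2 difference of FPKM + 1, treated minus DMSO, on the horizontal axis for the 9 tested genes, with CPI-169 in KARPAS-422 on the left and GSK343 in Pfeiffer on the right. Lines are 95% confidence intervals and filled points passed an adjusted p of 0.05. DUSP5 lies at -1.97 on the left and 0.71 on the right.

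The inhibitor effects differed between the lines for 7 of the 9 genes, in a test of the difference in which 42.6% of all genes were called. The effect on DUSP5 was lower in KARPAS-422 than in Pfeiffer by a log2 difference of -2.68 (SE 0.121, limma, adjusted p = 4.09e-07), with opposite signs in the lines. DUSP1 (-1.21), DUSP2 (-1.07) and SPRED1 (-0.90) were also lower in KARPAS-422. SPRED2 (1.42), SPRY1 (0.97) and DUSP4 (0.50) were higher there. SPRY1 was at 0.0562 FPKM or less in all KARPAS-422 libraries, where FPKM + 1 can show little fall. Its difference therefore rests on Pfeiffer. The DUSP4 difference rests on the scale, since it was 0.0811 with a pseudocount of 0.1 FPKM (adjusted p = 0.799, limma). DUSP6 missed the threshold (0.47, limma, adjusted p = 0.0521). It passed with a minimum of 5 FPKM (adjusted p = 0.0463), after quantile normalization (0.68, 0.00699), and without CPI-169 replicate 2 (0.0272) or KARPAS-422 DMSO replicate 2 (0.0227), all with limma.

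At baseline the 3 lines used different genes of the set. KARPAS-422 expressed 8 of the 10 at 1 FPKM or more in each library, RL 3, and the 2 Pfeiffer DMSO libraries 4 and 3. The sums over the 10 genes were 73.8 and 77.4 FPKM in RL, 140, 140 and 138 FPKM in KARPAS-422 DMSO, and 64.5 and 67.2 FPKM in Pfeiffer DMSO libraries. DUSP4, DUSP6, SPRY4 and SPRY1 passed the filter only through the line where they are high, and SPRED1 needed KARPAS-422 libraries to pass. DUSP5 passed through KARPAS-422 and Pfeiffer GSK343 libraries, with no RL or Pfeiffer DMSO library at 1 FPKM. Calls of these genes between lines therefore follow in part from the filter, and the counts below describe rather than support. These comparisons share DMSO libraries with each other and with the inhibitor comparisons. The libraries of each line also carry a number series of their own, which cannot be told apart from the line.

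In RL, DUSP2 and SPRED2 together held nearly the whole sum. DUSP2 was 30.2 and 30.5 FPKM in RL, against 15.1 to 17.8 FPKM in KARPAS-422 and 12.3 to 14.3 FPKM in Pfeiffer. The RL libraries lay above all others, and DUSP2 was higher than in KARPAS-422 (log2 difference 0.84, adjusted p = 2.41e-04) and than in Pfeiffer (1.14, adjusted p = 4.34e-05; both limma). SPRED2 was 40.3 and 43.9 FPKM in RL, higher than 15.6 to 19.0 FPKM in KARPAS-422 (1.28, adjusted p = 2.14e-04, limma). Against 33.4 and 33.4 FPKM in Pfeiffer it did not pass (0.32, adjusted p = 0.219, limma), but it did without either GSK343 library (adjusted p = 0.0104 each). Likewise SPRED1, at -0.27 against Pfeiffer, did not pass (adjusted p = 0.147) but did without GSK343 replicate 1 (0.0247) or 2 (0.0249) and with a pseudocount of 0.1 FPKM (-0.93, 0.0129), all with limma. DUSP1 was 2.77 and 2.52 FPKM in RL, lower than the 5.71 to 6.51 FPKM of KARPAS-422 (-0.96, adjusted p = 3.06e-06) and higher than 0.903 and 1.08 FPKM in Pfeiffer (0.87, adjusted p = 1.21e-05, limma).

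The remaining genes were near 0 in RL. DUSP4 was 0.0104 and 0.0134 FPKM, DUSP5 0.0337 and 0.0475 FPKM and DUSP6 0.243 and 0.145 FPKM in RL, against 23.2 to 23.9, 37.7 to 39.7 and 15.8 to 20.4 FPKM in KARPAS-422 DMSO libraries. SPRED1 was 0.206 and 0.141 FPKM, SPRY4 at most 0.00752 FPKM and SPRY1 at most 0.111 FPKM in RL. In RL against KARPAS-422, 2 tested genes were higher, 6 lower and 1 did not pass, where 66.8% of all genes were called, 33.6% higher and 33.2% lower. The groups did not overlap for 8 of the 9, and for 80.0% of all genes. Against Pfeiffer, RL had 2 genes higher, 2 lower and 5 without a call, where 74.3% of genes were called, 35.6% higher and 38.7% lower. These groups did not overlap for 8 of the 9, and for 91.0% of all genes. The lower genes were SPRY1 (log2 difference -4.08, limma, adjusted p = 6.86e-11) and DUSP5 (-0.31, adjusted p = 0.0108, limma). DUSP5 was at 0.327 and 0.260 FPKM in Pfeiffer DMSO libraries, so no library of this comparison reached 1 FPKM for it. The DUSP5 call was lost without Pfeiffer DMSO replicate 1 (-0.28, adjusted p = 0.0628) and turned to 0.0186 after quantile normalization (adjusted p = 0.874, limma).

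KARPAS-422 against Pfeiffer had 6 genes higher, 2 lower and 1 without a call, where 83.0% of all genes were called, 39.8% higher and 43.2% lower. The groups did not overlap for 9 of the 9, and for 89.9% of all genes. DUSP1 was 5.71, 6.06 and 6.51 FPKM in KARPAS-422 and 1.08 and 0.903 FPKM in Pfeiffer (log2 difference 1.83, SE 0.0898, limma, adjusted p = 9.06e-09). DUSP4, DUSP5, DUSP6 and SPRED1 were higher by 3.74 to 4.95 on the log2 scale and SPRY4 by 1.33. SPRY1 was lower, at 0.0347 FPKM or less in KARPAS-422 against 16.7 and 17.5 FPKM in Pfeiffer (-4.15, adjusted p = 1.72e-11, limma), as was SPRED2 (-0.96, adjusted p = 0.00118, limma). DUSP2 did not pass (0.29, adjusted p = 0.0675, limma), although it did without either GSK343 library (adjusted p = 0.0146 and 0.0147) and with median scaling (0.0386).

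Across the 5 groups the order of levels differed from gene to gene. For DUSP2 it was RL, KARPAS-422 DMSO, Pfeiffer GSK343, Pfeiffer DMSO and KARPAS-422 CPI-169 from high to low, and the Pfeiffer GSK343 libraries overlapped both neighbours. For SPRED2, RL and KARPAS-422 CPI-169 led, and the Pfeiffer GSK343 libraries reached from 18.9 to 36.9 FPKM. For DUSP1, KARPAS-422 DMSO led, followed by RL and KARPAS-422 CPI-169, with both Pfeiffer groups together at the low end. With CPI-169, DUSP1 in KARPAS-422 was 2.00 to 2.10 FPKM, below the 2.52 and 2.77 FPKM of RL.

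DUSP5, DUSP4 and DUSP6 had the widest range of group means, 5.26, 5.17 and 4.58 on the log2 scale. Genes with the most similar pattern over the 12 libraries were sought by the root mean square difference between centred log2(FPKM + 1) values. For DUSP5 these were PYY2 (0.442), RASGRP1 (0.447), which encodes an activator of RAS, and KIF5A (0.473). For DUSP4 they were SNAI2 (0.0635), TOX2 (0.153) and CERKL (0.166), and for DUSP6 MYRIP (0.149), CERKL (0.175) and RP11-6L6.3 (0.209). SNAI2 averaged 34.7 FPKM with CPI-169 and 21.5 with DMSO in KARPAS-422 and at most 0.0370 in the other groups. Most of this likeness is the contrast of KARPAS-422 with the other lines, over 5 groups of libraries.

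Genes around the feedback loop were described from lists chosen with earlier results of these data known. ERK-induced transcripts in KARPAS-422 had 12 of 19 tested members lower with CPI-169, 1 higher and 6 without a call, with a median log2 difference of -0.55, where 27.3% of all genes were lower. The transcription factor gene KLF10 was 1.44 ± 0.0592 FPKM with CPI-169 and 19.2 ± 1.49 FPKM with DMSO (SD, n = 3 each), FOS 1.96 ± 0.174 and 11.9 ± 0.829 FPKM, and EGR1 18.3 ± 1.56 and 110 ± 12 FPKM. MYC, named after its value was seen, was the 1 that rose (0.96). ETV5, an ETS factor gene often grouped with DUSP6 as ERK output and picked here after its values were seen, averaged 22.7 FPKM with CPI-169 and 59.2 FPKM with DMSO (-1.35, limma, adjusted p = 7.71e-07). It fell in the same libraries in which DUSP6 and DUSP4 rose.

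In Pfeiffer the same list had 4 members higher, 3 lower and 12 without a call with GSK343, and a median of 0.11, where 12% of all genes were higher and 17.5% lower, so the share called (7 of 19) lies near the 29.5% of all genes. ZFP36L1, encoding an mRNA decay factor, was 23.5 and 29.9 FPKM with GSK343 and 8.26 and 8.03 FPKM with DMSO. CCND1, the cyclin D1 gene, rose by 0.90 and ZFP36 fell by 0.51 on the log2 scale. Between the lines, 13 of the 19 effects were lower and 2 higher in KARPAS-422, where 18.8% of all genes were lower and 23.8% higher.

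The kinase cascade itself had 19 tested members, of which 2 were higher, 8 lower and 9 without a call with CPI-169 (median -0.16), where 26.9% of all genes were higher and 27.3% lower. With GSK343, 3 were higher, 5 lower and 11 without a call (median -0.13), where 12% of all genes were higher and 17.5% lower. The share called, 10 of 19 with CPI-169, is about the 54.2% of all genes. With CPI-169 the RAS activator gene RASGRP1 averaged 26.6 FPKM against 50.9 with DMSO, and SOS2, another one, 19.1 against 32.6. RASGRP3, of the same family as RASGRP1, rose to 21.9 FPKM against 10.6 with DMSO. With GSK343, KSR1, a scaffold gene of the cascade, rose by 0.67, the MEK gene MAP2K2 by 0.44 and RASGRP1 by 0.43 on the log2 scale.

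Other brakes on RAS and ERK had 4 of 15 members higher and 7 lower with CPI-169, and 3 higher and 1 lower with GSK343. Among all tested genes, CPI-169 had 26.9% higher and 27.3% lower, and GSK343 had 12% higher and 17.5% lower. The 4 of 15 called with GSK343 lie near the 29.5% of all genes. DOK3, an adaptor gene that restrains B cell receptor signalling, was 93.0 ± 0.564 FPKM with CPI-169 and 270 ± 4.07 FPKM with DMSO (SD, n = 3 each). DOK1 rose by 1.08 and the ubiquitin ligase gene CBL fell by 0.91 on the log2 scale. With GSK343, CBLB, ERRFI1 and LZTR1 rose by 0.68, 0.39 and 0.44. Of the other phosphatase and family genes, 3 of 7 were tested and DUSP16, a JNK and p38 phosphatase gene, rose in both comparisons (0.51 with CPI-169 and 0.76 with GSK343). JNK and p38 kinase genes had 3 of 11 higher and 5 lower with CPI-169, where 54.2% of all genes were called, with log2 differences of -0.73 for MAPK10, -0.71 for MAPK9 and -1.19 for MAP2K6, and 1 higher (MAPK8, 0.32) and 1 lower (MAPK9, -0.32) with GSK343, where 29.5% were called. ERK effector kinase genes had 3 of 7 higher and 2 lower with CPI-169, beside 54.2% of all genes called, with MKNK2 at -1.01, RPS6KA1 at 0.49 and RPS6KA5 at 0.52. With GSK343, 2 were higher (MKNK2, 0.42, and RPS6KA2, 0.49) and 1 lower (RPS6KA4, -0.43), beside 29.5% of all genes called. The medians of the lists of other brakes, JNK and p38 kinases and effector kinases lay between -0.15 and 0.17 with CPI-169 and between -0.0170 and 0.0488 with GSK343.

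**Figure D4:**
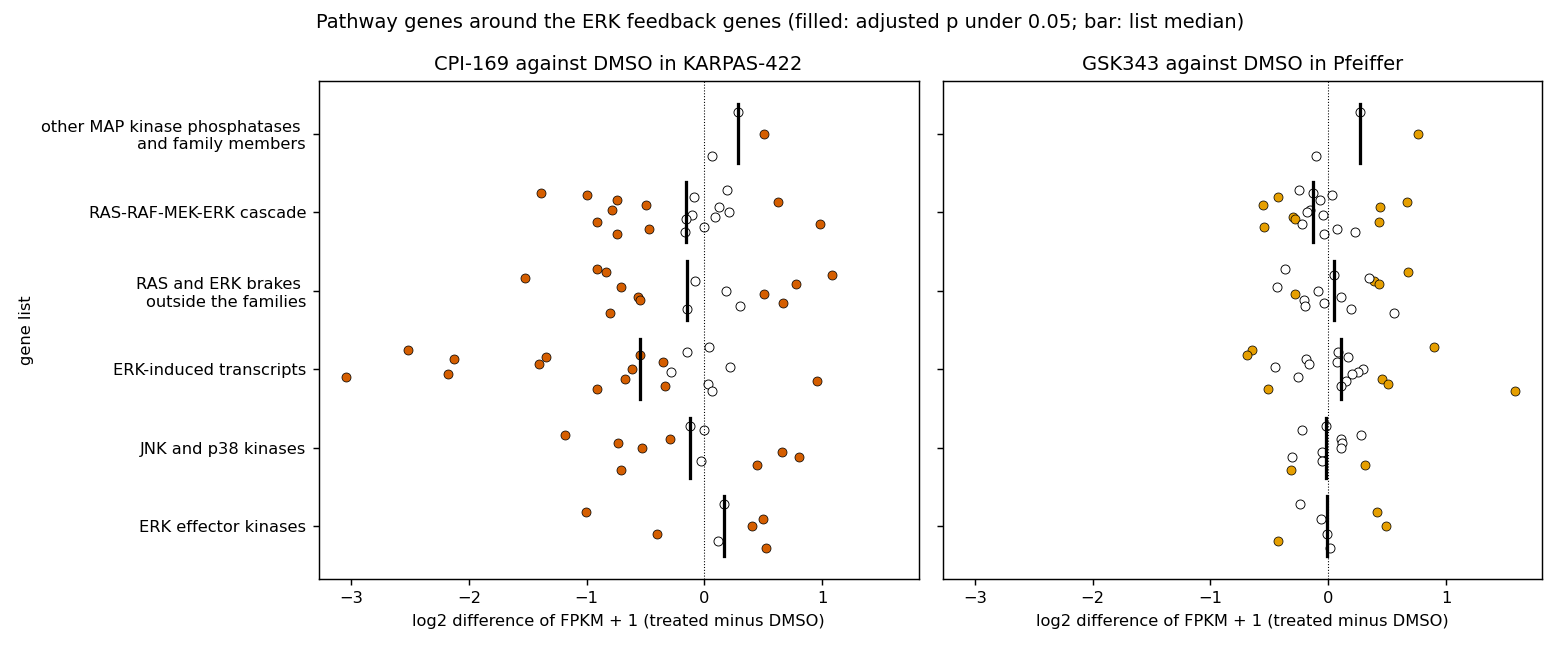
Log2 difference of FPKM + 1, treated minus DMSO, on the horizontal axis for each tested gene of 6 lists, with CPI-169 in KARPAS-422 on the left and GSK343 in Pfeiffer on the right. Filled points passed an adjusted p of 0.05 and bars are list medians. The ERK-induced transcripts have a median of -0.55 on the left and 0.11 on the right.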

How the data were processed

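RNA of 12 libraries was sequenced. The authors deposited 1 table of FPKM values per gene and library. Per the submitters' processing notes, TopHat 1.4.1 aligned the reads to hg19 and Cufflinks estimated the values. The sources used here do not give the Cufflinks version, annotation release or strand handling. Columns were matched to samples by title, and genes by the table's own symbols and hg19 loci. Without read counts the absolute depth is unknown, and values carry no counting interval. Judged from the spacing of the lowest values, depth relative to DMSO replicate 1 of the same line was 0.773 in the other RL library, 0.647 to 0.975 in the other KARPAS-422 libraries and 1.11 to 1.33 in the other Pfeiffer libraries. FPKM sums ran from 371965 to 630387.

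Genes that reached 1 FPKM in 2 or more libraries (18731; 77 genes with missing values left out) were fitted as log2(FPKM + 1) with limma 3.58.1 in R 4.3.3, with intensity trend and 5 groups together, which share 1 spread per gene (7 residual and 3.45 prior degrees of freedom). P-values were adjusted by Benjamini-Hochberg for each comparison. Whether replicates were separate cultures is not in the labels, and the p-values reflect the spread between these libraries alone, which may be technical. Per the labels' protocols, cells were lysed with Trizol or with RLT buffer; which library had which is not stated, so a difference in lysis between groups or lines was not tested. The members, lists and tests were chosen with earlier results of these data known. The naming rule took all members, up to 3 called genes with the smallest adjusted p per list and inhibitor, and the 3 genes most like each of the 3 members with the widest range. The fit was tested on simulated data. Alternatives were pseudocounts of 0.1 and 0.5 FPKM, no filter or a minimum of 5 FPKM, quantile normalization, median scaling, only the lines compared, a replicate block, and each library left out. Genes that overlap DUSP1, SPRY4 and SPRED2 reached at most 0.422 FPKM.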

Additional observations from a re-analysis of the deposited data

Results flagged for a closer look

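The inhibitor effects on 7 genes differed between the lines in a test of the difference itself (CPI-169 effect in KARPAS-422 minus GSK343 effect in Pfeiffer, limma). In that test 42.6% of all genes were called, 23.8% higher and 18.8% lower. The log2 differences were -1.21 for DUSP1 (adjusted p = 5.77e-05), -1.07 for DUSP2 (0.0015), 0.50 for DUSP4 (0.0044), -2.68 for DUSP5 (4.09e-07), 0.97 for SPRY1 (1.87e-04), -0.90 for SPRED1 (0.00556) and 1.42 for SPRED2 (0.00308). The CPI-169 and GSK343 libraries lay on opposite sides of their DMSO libraries, without overlap in either line, for DUSP5 and SPRED1. The rise of SPRED1 with GSK343 was not called (adjusted p = 0.0827, limma), at 0.545 and 1.27 FPKM against 0.431 and 0.402 with DMSO. Groups did not overlap for 65.0% of all genes with CPI-169 and 57.8% with GSK343. SPRY1 was at 0.0562 FPKM or less in KARPAS-422 and DUSP4 at 0.106 FPKM or less in Pfeiffer, so their differences rest on 1 line each. Compound and line cannot be told apart.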

How the results depend on the processing

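Over 54 results of single genes and 20 alternatives each, 1032 of 1074 values kept their direction and side of the threshold, 5 lost and 19 gained a call, and 18 changed sign. The calls of DUSP1, DUSP2, DUSP4, DUSP5, DUSP6 and SPRED2 with CPI-169 held in all alternatives run. Of the sign changes, 1 was in a called result: DUSP5 in RL against Pfeiffer was 0.0186 after quantile normalization. The others were in results without a call. After quantile normalization, SPRY1 with CPI-169 was -0.0199, DUSP6 with GSK343 -0.00474, and in RL against Pfeiffer DUSP4 was 0.14, SPRY4 0.11 and SPRED1 0.17. Quantile normalization moved the median of all genes in that comparison to 0.13, against -0.0252, and in KARPAS-422 against Pfeiffer to 0.10, against -0.0570. After median scaling, SPRY1 with CPI-169 was -0.0499, DUSP1 and SPRY4 with GSK343 0.0383 and 0.0184, and DUSP4 and SPRY4 in RL against Pfeiffer 0.0361 and 0.00705. Leaving out 1 library gave ranges of -0.00299 to 0.0276 for SPRY1 with CPI-169, and with GSK343 of -0.0719 to 0.0582 for DUSP1, -0.00316 to 0.48 for DUSP2, -0.00204 to 0.0926 for DUSP6 and -0.79 to 0.14 for SPRED2.

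In Pfeiffer, 5535 genes and 2 members were called with GSK343. Leaving out 1 library gave 3003 (without DMSO replicate 1) to 8681 genes (without GSK343 replicate 1) and 2 to 4 members; 3537 genes were called without DMSO replicate 2. With Pfeiffer fitted alone, 0 genes and 0 members were called with limma, and 4634 genes and 2 members had an unadjusted p under 0.05. Quantile normalization gave 2652 higher and 2548 lower, against 2254 and 3281, and median scaling 3623 higher and 4564 lower in the difference of effects, against 4460 and 3523. In RL against Pfeiffer, 4 of the 9 members and 74.3% of all genes were called. The number of members called there changed when 1 library was left out. The replicate numbers were not taken as pairs: in KARPAS-422, deviations of same-numbered libraries correlated at -0.152, -0.252 and 0.156. A replicate block gave 3531 genes with GSK343, and changed no call of a member. The cause of these changes was not tested. SPRY4 has no value at a minimum of 5 FPKM. Levels below 1 FPKM are where depth limits what can be seen.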
